A study of Rattus norvegicus with 6 samples.

Results

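Thy1 encodes Thy-1, also called CD90, a small glycoprotein of the immunoglobulin superfamily that a glycosylphosphatidylinositol (GPI) anchor holds in the outer leaflet of the cell membrane. The gene was read by 2 of the 8740 probe sets on the arrays, those that the platform annotation assigns to Thy1 and to no other gene. A probe set is a group of short oligonucleotides whose combined brightness, the signal, stands for 1 transcript. The gene was picked because its signal differed between treated and control cultures, so its change is described here without a test. Both probe sets passed the filter on low signals, which kept 5244 of the 8740. The fibroblast genes Pdgfra, Ddr2, Tcf21 and S100a4 were set beside it as context, and 8 of their 9 probe sets passed that filter.

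Cardiac fibroblasts were taken from the ventricle of Sprague-Dawley rats aged 1 to 2 days and grown as primary cultures. For 24 h, 3 of the 6 cultures had water, the control, and the other 3 had pertussis toxin (PTX), and a separate 1-colour Affymetrix array was used for each. PTX is a bacterial enzyme that modifies Gi and Go proteins so that receptors can no longer activate them. Its dose and the number of hearts behind a culture were not stated in the labels. Nothing in the labels says whether the 3 cultures of a group came from separate isolations, so SEs and p-values describe the scatter among these cultures, part or all of which may be technical.

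Thy-1 has no part that crosses the membrane. It sits in lipid rafts, where it acts through Src family kinases on the inner side, and it binds integrins and syndecan-4 on neighbouring cells, contacts that affect adhesion and cell shape. In the heart it is widely used as a surface marker to sort fibroblasts, and in rats it is also abundant on neurons and thymocytes. In rat lung, fibroblasts with and without Thy-1 have been described as separate subsets.

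Thy1 signals were lower in the cultures given PTX. On the brighter probe set, rc_AA874848_s_at, the control arrays read 554, 558 and 509 in replicates 1 to 3, and the PTX arrays read 295.5, 274.5 and 238. All 3 PTX arrays lay below all 3 controls, with a gap of 214 between the nearest arrays of the groups. The mean went from 541 ± 27.3 to 269 ± 28.9 (SD, n = 3 each), so the PTX arrays averaged 49.8% of the control mean. The log2 change, PTX minus control on the log2(signal + 16) scale, was -0.97 ± 0.14 (SE). In bulk cultures, fewer cells that carry Thy1 and less Thy1 RNA per cell cannot be told apart.

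The dimmer probe set, X02002_at, had the same direction with wider scatter. Its control arrays read 124, 74.3 and 98.3, and its PTX arrays 48.7, 55.6 and 75.5. The groups overlapped there, since PTX replicate 3 lay just above control replicate 2. The means were 98.7 ± 24.7 and 59.9 ± 13.9 (SD, n = 3 each), a PTX mean at 60.7% of the control mean and a log2 change of -0.59 ± 0.24 (SE).

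The probe sets differed in precision. On the brighter one the coefficient of variation, the SD as a percent of the mean, was 5.04% among controls and 10.7% among PTX arrays, against 25.0% and 23.2% on the dimmer one. They also ordered the arrays within a group differently. PTX replicate 3 was the lowest PTX array on the brighter probe set and the highest on the dimmer one, and control replicate 2 was the highest control on the former and the lowest on the latter. Over the 6 arrays their log2 values had a Pearson correlation of 0.69, which holds the difference between the groups and is given as a description only.

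**Figure D1:**
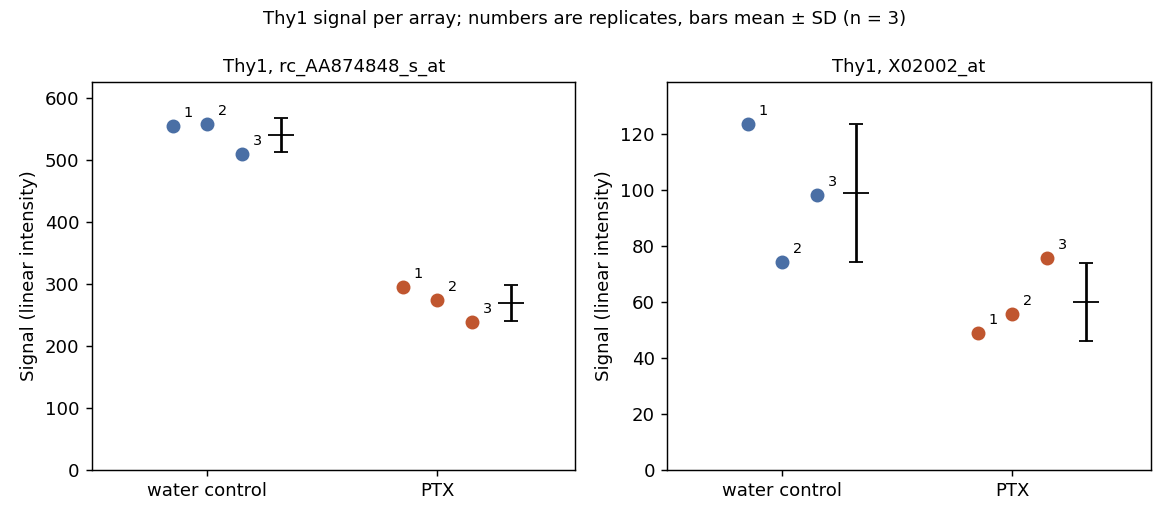
Signal of the 2 Thy1 probe sets on each array, as linear intensity from 0, with water controls in blue and PTX in orange; each point is 1 array with its replicate number, and the bars beside the points give the mean ± SD (n = 3). On the left the PTX arrays lie at 238 to 295.5 and the controls at 509 to 558; on the right the groups overlap between 74.3 and 75.5.

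As context for the size of the Thy1 change, 18 of the 5244 tested probe sets (0.343%) had a more negative log2 change than the brighter Thy1 probe set, and 121 (2.31%) had a more negative one than the dimmer. The count of 18 depended on the setting: it was 54 without PTX replicate 3, 28 without control replicate 2, 11 without control replicate 1, 43 with a pseudocount of 1 and 2 with a pseudocount of 64. Most of those 18 were dim. Their control means ran from 56.3 to 8839 with a median of 82.5, and 15 of the 18 had a control mean under 120. On 13 the groups did not overlap, which a choice by size of fall favours. Of all tested probe sets, 10.6% were lower without overlap. With no filter, 42 of all 8740 probe sets had a more negative change than Thy1, and with the filter raised to the 60th percentile of mean signal, which left 3496, 2 did. Of these 2, one was a probe set of Myh6, the alpha cardiac myosin heavy chain, at -1.09 with overlapping groups. The other, rc_AA859372_s_at, has no single gene name here and stood at -2.44.

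Among probe sets with 1 gene symbol, those next to Thy1 in the ranking were mostly dim. The 4 just above it were Svs3a, a seminal vesicle protein gene (-1.04), the transcription factor gene Tcf12 (-1.04), the chymotrypsin gene Ctrc (-0.99) and the low-affinity IgE receptor gene Fcer2 (-0.97), with control means of 66.3 to 97.3. The 4 just below were the general transcription factor gene Gtf2a1 (-0.97), the interleukin receptor gene Il1rl2 (-0.95), the asparagine synthetase gene Asns (-0.91) and a probe set of the pseudokinase gene Trib3 (-0.89). Of these 8, Asns was the only one with a control mean above 120, at 427, and its groups did not overlap.

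One array differed from the rest: the log2 values of control replicate 1 over all probe sets had Pearson correlations of 0.952 to 0.960 with the other arrays, against 0.978 to 0.985 among the other 5. The median signal per array was 63.1 to 68.85. The 795 tested probe sets whose names begin with rc_AA799, rc_AA800, rc_AA892, rc_AA893 or rc_AA894 had low signals there as a class, with a median difference of -0.53 from the other controls on the log2 scale, though not each of them did. Neither Thy1 probe set belongs to them: the 180 tested ones named rc_AA874 or rc_AA875 differed there by a median of 0.02, and those not named rc_ by 0.17. Thy1 was not low on control replicate 1, which read 103% of the control mean on the brighter probe set and 125% on the dimmer. Without that array the log2 changes of Thy1 were -0.95 and -0.44.

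The context genes had log2 changes between -0.36 and 0.36 on their tested probe sets, in both directions. Across all tested probe sets, limma with Benjamini-Hochberg adjustment called 4 higher (0.0763%) and 0 lower (0%) with PTX at an adjusted p under 0.05, and before adjustment, at p under 0.05, it called 418 higher (7.97%) and 242 lower (4.61%). None of the 8 tested context probe sets passed the adjusted threshold, and 1, of Pdgfra, had an unadjusted p under 0.05, in the higher direction. Non-overlapping groups occurred for 631 higher (12%) and 556 lower (10.6%) of all tested probe sets. Taking the brightest probe set per gene, 1 context gene was higher without overlap, 1 was lower without overlap, and the median log2 change was 0.05, beside -0.02 over all tested probe sets. With the mean of each gene's tested probe sets that median was -0.10.

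Pdgfra encodes the alpha receptor for platelet-derived growth factor, which marks cardiac fibroblasts and their progenitors. Its brightest probe set, rc_AI232379_at, read 1755, 2196 and 1880 in the controls and 2805, 2216 and 2465 with PTX. The PTX arrays lay above the controls, replicate 2 by a small margin. The log2 change was 0.36 (95% interval 0.02 to 0.69, limma adjusted p = 0.380). Its dim probe sets did not share 1 direction, with -0.22 on Z14118cds_at and 0.29 on Z14118cds_g_at, both with overlapping groups, and rc_AI137657_at read 4.9 or less on every array and was not tested.

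Ddr2 encodes a receptor tyrosine kinase that is activated by fibrillar collagen. The brighter probe set, AF016247_g_at, read 316, 343 and 377.5 in the controls and 256, 353 and 291 with PTX, and the groups overlapped. The log2 change was -0.20 (95% interval -0.58 to 0.18, limma adjusted p = 0.587). The dimmer probe set, AF016247_at, had means of 82.4 and 60.8 without overlap and a log2 change of -0.36 (-0.81 to 0.09, limma adjusted p = 0.453).

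Tcf21 encodes a transcription factor needed for cardiac fibroblasts to form from the epicardium, and its probe sets differed in direction. On rc_AA800748_at, which read 107% of its control mean on control replicate 1 although its prefix is in the class above, the log2 change was 0.29 (95% interval -0.18 to 0.77, limma adjusted p = 0.534), and on AF061752_at it was -0.22 (-0.62 to 0.17, limma adjusted p = 0.565). The groups overlapped on both. S100a4, which encodes a calcium-binding protein also called fibroblast-specific protein, read 15722, 13322 and 13634 in the controls and 12988, 11445 and 11595 with PTX. The groups did not overlap, and the log2 change was -0.24 (95% interval -0.51 to 0.03, limma adjusted p = 0.430).

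The log2 change of the brighter Thy1 probe set, minus that of the brightest probe set of each context gene, was -1.33 for Pdgfra, -1.26 for Tcf21, -0.77 for Ddr2 and -0.72 for S100a4. For the dimmer Thy1 probe set these differences were -0.95, -0.88, -0.39 and -0.35. They were not tested, because Thy1 was picked from this contrast.

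**Figure D2:**
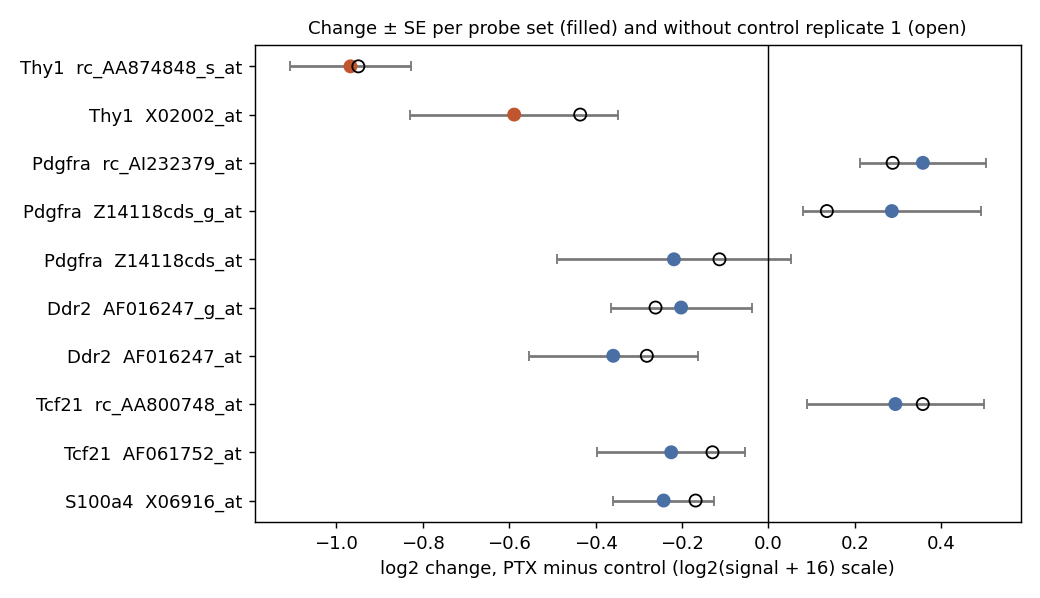
Log2 change, PTX minus control, with its SE (bars) for the 2 Thy1 probe sets (orange) and the 8 tested probe sets of the context genes (blue); open circles give the change without control replicate 1. Thy1 lies at -0.97 and -0.59, and the context genes lie between -0.36 and 0.36 on both sides of 0.

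**Figure D3:**
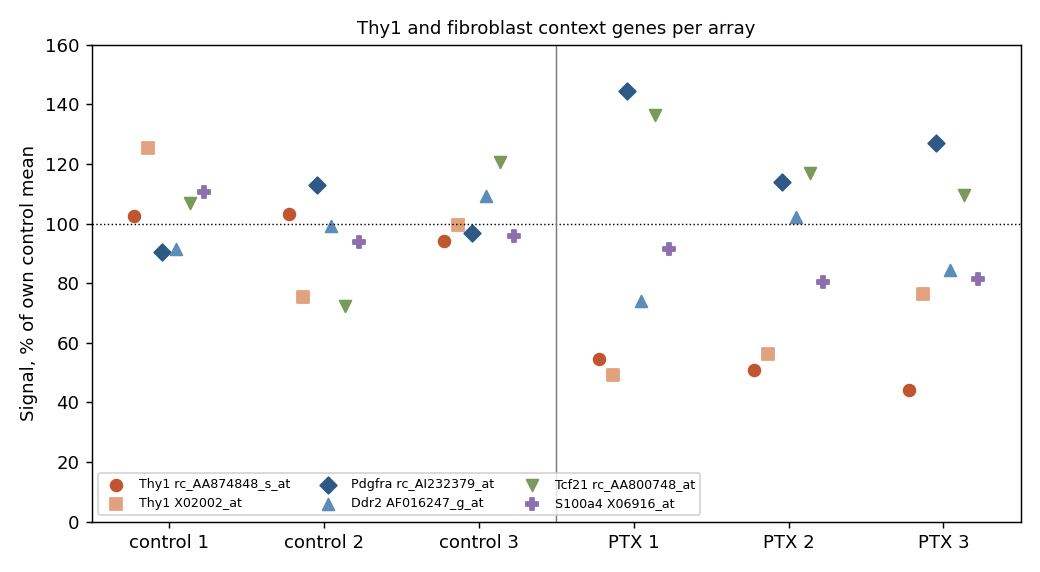
Signal of each array as a percent of the same probe set's control mean, for both Thy1 probe sets and the brightest probe set of each context gene; the vertical line separates controls from PTX and the dotted line marks 100%. On the PTX arrays the brighter Thy1 probe set lies at 44.1 to 54.7% and the dimmer at 49.3 to 76.5%, Pdgfra at 114 to 144%, Tcf21 at 110 to 136%, Ddr2 at 74.0 to 102% and S100a4 at 80.5 to 91.3%.

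Of the genes that encode binding partners of Thy-1, 6 of 12 listed were tested, and 0 passed the adjusted or the unadjusted threshold with limma. The median log2 change was -0.03, with 3 negative. Itgb1, the integrin beta subunit shared by many matrix receptors, had 6378 ± 1559 in the controls and 7469 ± 402 with PTX (0.25, limma adjusted p = 0.528). Itgb3, the beta subunit that pairs with the alpha V chain in an integrin that binds Thy-1, had 27.6 ± 13.4 and 48.9 ± 4.20, which is dim, and showed no overlap (0.63, limma adjusted p = 0.438). Sdc4, the syndecan that binds Thy-1 through its heparan sulfate chains, had -0.29 with overlapping groups, or -0.02 without control replicate 1. Lgals1, a galectin that binds glycans, had -0.11.

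Among genes of raft signalling below Thy-1, 12 of 16 listed were tested and 0 passed the adjusted threshold with limma. At an unadjusted p under 0.05 there was 1 lower gene, Cav1, beside 4.61% of all tested probe sets. The median log2 change was -0.03. Cav1 encodes caveolin-1, the coat protein of caveolae, and read 353.5, 235 and 265 in the controls and 190, 164 and 173 with PTX, without overlap. Its log2 change was -0.63 ± 0.18 (SE), with a limma adjusted p of 0.277, and -0.47 without control replicate 1. Csk, the kinase that holds Src family kinases inactive, had 86.5 ± 18.3 and 61.6 ± 9.82 without overlap (-0.39, limma adjusted p = 0.456). Lyn, a Src family kinase, had 0.81 on dim and overlapping signals. Rhoa, a small GTPase that drives stress fibres, had -0.16, the raft scaffold gene Flot1 had -0.12, and both had overlapping groups.

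Genes of other GPI-anchored surface proteins gave no call at the adjusted threshold. Of 39 listed, 24 were on the array and 15 were tested, and 0 passed the adjusted threshold with limma. At an unadjusted p under 0.05 there was 1, in the higher direction, beside 7.97% of all tested probe sets. The median log2 change was -0.10, with 10 of 15 negative, beside 52.9% of all tested probe sets. The higher one was Bst1, an ectoenzyme that acts on NAD, with 249 ± 44.5 and 366 ± 12.2 (0.54, limma adjusted p = 0.303). Without control replicate 1 the phosphatase gene Alpl was a further one (0.37, or 0.11 with all arrays), named after its value was seen. Prnp, the cellular prion protein, had 3292 ± 155 and 2741 ± 282 without overlap (-0.27, limma adjusted p = 0.427). The glypican gene Gpc3 had -0.24, the contactin gene Cntn2 had -0.60 on dim signals and the leukocyte antigen gene Cd48 had 0.34, each with overlapping groups. Dimmer probe sets of Gpc3 had 0.90 and -0.32, also with overlap. No gene of this list had a change as negative as the brighter Thy1 probe set, beside 0.343% of all tested probe sets. Cntn2, at -0.60, was slightly more negative than the dimmer Thy1 probe set, at -0.59.

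Of the genes that make or transfer the GPI anchor, 3 of 22 listed were tested, too few to describe the pathway, and 0 passed either threshold with limma. Their log2 changes were -0.24 for Dpm2, which regulates the supply of the anchor's mannose donor, -0.01 for Pigl, an early deacetylase of the pathway, and 0.24 for Pigf, which takes part in a late step. All 3 had overlapping groups.

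Genes of other surface proteins of mesenchymal stromal cells differed in direction from one another. Of 18 tested out of 23 listed, 0 passed the adjusted threshold with limma, and the median log2 change was 0.06. Before adjustment 2 were higher and 2 lower at p under 0.05, beside 7.97% and 4.61% of all tested probe sets. The 2 higher ones were the adhesion molecule genes Icam1, with 900 ± 18.8 and 1348 ± 91.3 (0.57, limma adjusted p = 0.184), and Vcam1, with 63.0 ± 6.30 and 124 ± 16.1 (0.82, limma adjusted p = 0.206). The 2 lower ones were Bsg, which encodes basigin, an inducer of matrix metalloproteinases (-0.37, limma adjusted p = 0.397), and the aminopeptidase gene Anpep (-0.36, limma adjusted p = 0.378). Without control replicate 1, Icam1 passed the adjusted threshold (limma adjusted p = 0.0226), whereas Bsg (-0.21) and Anpep (-0.27) no longer had an unadjusted p under 0.05.

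The wider fibroblast markers, mostly matrix genes, were split in direction. Of 31 listed, 21 were tested, and 0 passed the adjusted threshold with limma. Before adjustment 3 were higher and 1 lower at p under 0.05, beside 7.97% and 4.61% of all tested probe sets. The median log2 change was -0.003. The 3 higher were Lum, which encodes the collagen-binding proteoglycan lumican, with 1325 ± 500 and 2697 ± 76.7 (1.10, limma adjusted p = 0.235), Postn, a matricellular protein gene (1.07, limma adjusted p = 0.274), and Fn1, the fibronectin gene (0.43, limma adjusted p = 0.388). The groups overlapped for Fn1, and its other probe sets had -0.81, on dim signals, 0.13 and 0.09, also with overlap. The prefix of the Postn probe set is in the class with low medians on control replicate 1, and it read lowest there, at 1142. The lower one was Col5a1, a fibrillar collagen gene, with 2255 ± 63.9 and 1850 ± 96.1 (-0.28, limma adjusted p = 0.376). Without control replicate 1, Lum passed (0.74, limma adjusted p = 0.00662). Before adjustment 5 were then higher and 2 lower at p under 0.05, Fn1 (0.34) no longer among them. Over all 5244 tested probe sets 303 were lower in that setting, and no such count is given for the higher direction.

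Contractile genes of myofibroblasts gave no call. Of 17 listed, 10 were tested and 0 passed the adjusted or the unadjusted threshold with limma. The median log2 change was -0.03, or -0.15 without control replicate 1, and with all arrays 5 genes were negative and 5 positive. Among the positive ones were Cald1 (0.44) and the smooth muscle actin gene Acta2 (0.59), both with overlapping groups. Without control replicate 1 Acta2 had 0.03, and its other probe sets had -0.19 and -0.11 with all arrays. Tagln, Myl9 and Tpm1 encode the actin-binding protein transgelin, a regulatory myosin light chain and a tropomyosin. These 3 of the 10 were lower without overlap on their brightest probe sets (-0.35, -0.37 and -0.40), beside 10.6% of all tested probe sets. Other probe sets did not all share this: X02412_at of Tpm1 went from 13852 to 15796 without overlap (0.19), and the second one of Myl9 overlapped (-0.16). Without control replicate 1 the values of the brightest probe sets were -0.19, -0.12 and -0.17. In that setting 1 gene of the list, the cadherin gene Cdh2, was lower at an unadjusted p under 0.05 (-0.25, or 0.05 with all arrays). This stands beside 303 lower of all 5244 tested probe sets there, and Cdh2 is named after its value was seen.

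Most markers of other cells that can carry Thy1 were dim on these arrays. Uchl1 and Thbd, given below, had control means above the 98.7 of the dimmer Thy1 probe set. Of 14 T cell markers, 10 were on the array and 3 were tested. The tested ones had control and PTX means of 83.4 and 83.3 (Lck), 57.3 and 49.3 (Cd8b) and 53.1 and 40.8 (Cd5), with overlapping groups. The antigen receptor subunit gene Cd3d, which was not tested, read 9.7 or less on every array. The summed signal of the 10 was 281 to 363 in the controls and 256 to 304 with PTX. Of 16 neuronal markers, 13 were on the array, with summed signals of 518 to 728 in the controls and 658 to 691 with PTX, and 6 were tested. The synaptic gene Snap25 had -0.62 with means of 50.1 and 28.2 and overlapping groups, and the noradrenaline synthesis genes Th and Dbh had 0.54 and 0.62 without overlap. Uchl1 had means of 219 and 216 on its brightest probe set, with overlapping groups. Of 12 endothelial markers 3 were tested, Thbd (control mean 160), Kdr (84.8) and Flt1 (59.5), all with overlapping groups. Pecam1, the platelet and endothelial adhesion molecule gene, was not tested and read 39.2 or less on every array. In each of these lists 0 genes passed the adjusted or the unadjusted threshold with limma. Without control replicate 1, Th and Dbh had an unadjusted p under 0.05 (0.70 and 0.69), and the neuronal median went from 0.26 to 0.44. No marker was listed at exactly 0, and the part of these cells in the Thy1 signal was not tested.

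Markers of cardiomyocytes and macrophages were present beside those of fibroblasts, and the summed signal of the cardiomyocyte markers was the larger. The 22 wider fibroblast markers on the array summed to 152611 to 176409 in the controls and 148695 to 160088 with PTX. Of 16 cardiomyocyte markers, 14 were on the array, with a summed signal of 277624 to 367390 in the controls and 244006 to 275484 with PTX, and 12 were tested. The cardiomyocyte sums did not overlap between the groups. The log2 changes of the tested markers had a median of -0.15, which was -0.08 without control replicate 1, and 0 passed the adjusted threshold with limma. Before adjustment 1 was lower at p under 0.05, beside 4.61% of all tested probe sets. It was Myh7, the beta cardiac myosin heavy chain gene, with -0.39 (limma adjusted p = 0.375), or -0.21 without that array. That count takes the brightest probe set per gene, of which 10 were negative and 2 positive. Dimmer probe sets of Nppa (-0.30, -0.37 and -0.26) and of Tnni3 (-0.32) were lower without overlap. Each had an unadjusted p under 0.05 with limma. Of 16 macrophage and leukocyte markers, 11 were on the array, with a summed signal of 3714.5 to 3726 in the controls and 4473 to 5612 with PTX, again without overlap, and 7 were tested. Their median log2 change was 0.20, and 0 passed the adjusted threshold with limma. Before adjustment 2 were higher at p under 0.05, beside 7.97% of all tested probe sets. These were Lyz2, a lysozyme gene (0.52, limma adjusted p = 0.303), and Fcgr2b, an Fc receptor gene (0.88, limma adjusted p = 0.0876), which passed without control replicate 1 (limma adjusted p = 0.00791). The sum rests mostly on Lyz2, with means of 2381 and 3445. Of the 7 tested, 5 were positive and 2 negative. The negative ones were the complement genes C1qb (-0.39) and C1qc (-0.24), both with overlapping groups. The leukocyte gene Ptprc read 62.1 or less on every array. Smooth muscle and pericyte markers had a median of -0.05 over 6 tested genes, with 0 past either threshold on their brightest probe sets. For Abcc9 that probe set had -0.14 with overlapping groups. Its dimmer ones, AF087838_s_at (0.49, limma unadjusted p = 0.0216) and D83598_at (0.42, limma unadjusted p = 0.0269), were higher without overlap. The part that a shift in any of these cells has in the Thy1 difference was not tested.

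The genes whose profile was most like that of Thy1 were found by the root mean square difference from the brighter Thy1 probe set over the 6 arrays, after each probe set's log2 values were centred on their own mean. Since Thy1 was picked for its difference between the groups, this measure favours genes with a difference of the same size, and the likeness is a description over 6 arrays that share that contrast. The 8 nearest genes had root mean square differences of 0.12 to 0.19 on the log2 scale. On the probe set that was nearest, none of the 8 had groups that overlapped, which the choice by likeness to Thy1 favours.

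The nearest was Asns, which makes asparagine, with 429, 458 and 395 in the controls and 229, 200.1 and 229 with PTX, or 51.4% of its control mean, beside 49.8% for Thy1. Next were Trib3, a pseudokinase gene (58.9% of the control mean), and Ddit3, a transcription factor gene of the integrated stress response (55.5%). Ddit3 read 1220, 1519 and 1285 in the controls and 793, 715 and 725 with PTX. Another probe set of Trib3 overlapped between the groups.

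The other 5 were Npw, the neuropeptide W precursor gene (55.2%), Pak2, a kinase gene downstream of Rac and Cdc42 (50.0%), Tgfb3, a transforming growth factor beta ligand gene (58.3%), Hk2, a hexokinase gene (65.1%), and Ccnd1, the cyclin D1 gene (62.2%). The Pak2 probe set was dim, with means of 57.1 and 28.6, and a brighter one of the same gene stood at 85.6% of its control mean. For Tgfb3 the second probe set, at 53.7%, also showed no overlap. Another probe set of Hk2 (79.1%) and 3 further ones of Ccnd1 (71.5 to 83.2%) had smaller differences. Asns and Ddit3 stayed among the 8 nearest under all 7 alternatives, which were Pearson correlation in place of the distance and each array left out in turn, and Trib3 under 6 of them. Npw stayed under 5, Pak2 under 4, Tgfb3 and Hk2 under 1 each and Ccnd1 under 0. The dimmer Thy1 probe set was itself not among the nearest: at a root mean square difference of 0.36, 340 of 5242 probe sets lay closer.

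**Figure D4:**
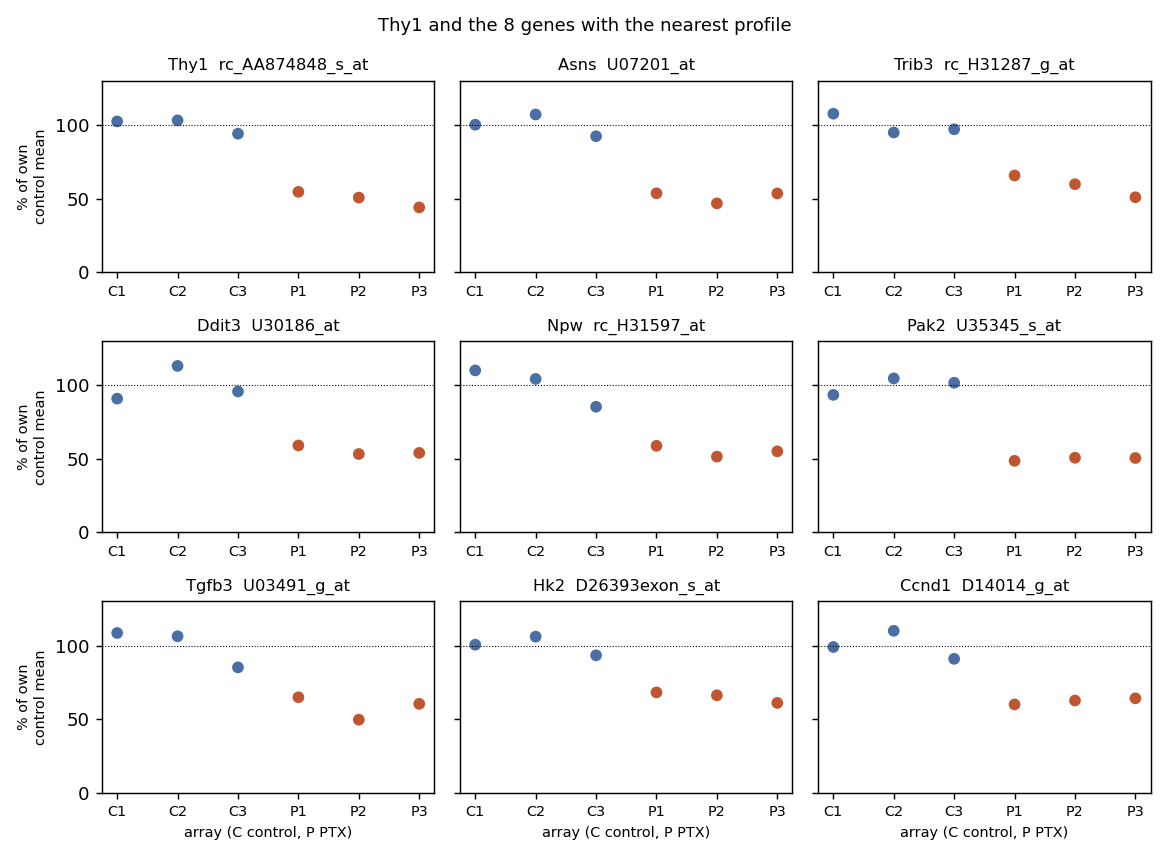
Signal of each array as a percent of the probe set's own control mean, for the brighter Thy1 probe set and the 8 genes with the nearest profile; C1 to C3 are the controls (blue), P1 to P3 the PTX arrays (orange), and the dotted line marks 100%. The groups do not overlap in any panel, and the PTX mean ranges from 49.8% for Thy1 to 65.1% for Hk2.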

How the data were processed

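The arrays were read out with GCOS, software of the array's maker, per the submitters' processing notes. No version, scaling target or detection call was used or stated. The values the authors deposited are intensities on a linear scale, with a column for each array. Trimmed by 2% at each end, the array means were 491 to 493, so no further scaling was applied. Signals were analysed as log2(signal + 16), which understates changes of low signals. Probe sets under the 40th percentile of mean log2 signal were left out. PTX and control were compared with limma 3.58.1 in R 4.3.3 (lmFit, eBayes with an intensity trend, two-sided, Benjamini-Hochberg over all 5244 tested), a procedure also tested on simulated data. The number of arrays limits the precision.

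Of the probe sets, 7006 have 1 gene symbol, 308 several and 1426 none. Of the 7006, 6985 were matched by Entrez identifier to a RefSeq table of the rat assembly GRCr8 and took its symbol, whether or not it differed. A gene in a list is represented by its brightest tested probe set. The genes named were drawn from Thy1 and the context genes, per list the 4 with the smallest p and the 2 brightest, the 8 nearest profiles, and the 4 neighbours on each side of Thy1 in the ranking of falls. Not every gene under this rule is named. Cd3d, Pecam1, Ptprc, Myh6, Acta2, C1qc, Alpl and Cdh2 were named outside it, with their values known. Members, lists and tests were chosen with earlier results of these data known. No pair of arrays held identical values (0 pairs).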

Additional observations from a re-analysis of the deposited data

How the results depend on the processing

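The Thy1 log2 change was negative under all 17 alternatives on both probe sets, which the choice of Thy1 for its difference in these arrays favours. Some of the 17 could not move it by construction: the filter settings, the replicate block, no intensity trend and robust variances. Under the rest it moved by less than 1 SD between replicates. It ran from -1.04 (quantile normalization) to -0.86 (pseudocount 64) on the brighter probe set, and from -0.75 to -0.39 (pseudocount 64) on the dimmer. Leaving out 1 array gave -1.03 to -0.89 and -0.75 to -0.44. On the dimmer probe set the pseudocount of 64 moved the value by over 1.5 times, as low signals are compressed by construction. No context probe set passed under any alternative (limma adjusted p of 0.278 to 0.944) or changed sign. With the replicate number as a block, the Thy1 changes were -0.97 and -0.59 as without it, which the balanced design fixes in advance. Deviations of same-numbered arrays from their group means had correlations of -0.11 to -0.01. With 3 arrays in a group, these cannot settle whether the numbers pair the cultures. The block moved the lower probe sets at an unadjusted p under 0.05 from 242 to 179, with 0 lower at an adjusted p under 0.05. Without a filter, which tests 8740 probe sets, that count was 373, and leaving out 1 array gave 126 (without PTX replicate 2) to 385 (without control replicate 3), with 148 without PTX replicate 1 and 158 without PTX replicate 3. At an adjusted p under 0.05, 15 were lower with array quality weights and leaving out 1 array gave 0 to 18, the 18 without control replicate 1; the cause was not tested. Of the 8 genes with the nearest profile, 4 were shared under Pearson correlation, and 4 or 5 when 1 array was left out. Signals near the background carry no detection call here, which limits the dimmer Thy1 probe set most. With probe sets averaged within each gene, the list median turned sign for the context genes (-0.10), the wider fibroblast markers (0.03) and the smooth muscle markers (0.07). List medians and counts without control replicate 1 were chosen after seeing the data, and no count of higher calls over all probe sets is given there. In that setting the medians of the wider fibroblast markers (0.02) and the binding partners (0.07) turned positive.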
